A study of Mus musculus with 16 samples.

Results

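The genes described here are 10 genes of the collecting duct principal cell: Aqp2, Aqp3, Aqp4, Avpr2, Scnn1b, Scnn1g, Fxyd4, Hsd11b2, Stc1 and Tmem45b. They were taken by symbol from the 40879 gene symbols of the deposited kidney count files, all 10 were found, and all 10 were among the 14665 genes with enough counts to be tested. RNA from kidneys of male wild-type C57BL/6 mice was read with a 3' RNA sequencing kit (QuantSeq), which reads the end of each transcript next to its poly(A) tail. The 16 libraries form 4 groups. Young (n = 5) came from mice of 3 months. Old (n = 5) came from untreated, naturally aged mice, whose age when the kidneys were taken the sources used here leave out. Old+YM (n = 3) and Old+PM (n = 3) came from aged mice given the herbal formulas Yukmijihwang-tang (YM) or Palmijihwang-tang (PM) by mouth at 100 mg/kg/day, 5 days a week, starting at 19 months and ending at 24 months. All 3 aged groups had a 5-month acclimatization first. One passage of the design text names YM where the PM dose is given, and the group name was followed. Whether every library is its own mouse is not stated, so p-values measure only the spread between these libraries.

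Principal cells line the collecting duct, the last segment of the renal tubule, and set how much water and sodium the urine keeps. Vasopressin binds its receptor on the blood side of the cell, cyclic AMP rises, and vesicles carrying aquaporin-2 fuse with the luminal membrane; water then leaves the cell through aquaporin-3 and aquaporin-4. Aldosterone acts through the mineralocorticoid receptor to raise sodium entry through the epithelial sodium channel, and the enzyme encoded by Hsd11b2 inactivates glucocorticoids that would otherwise occupy that receptor.

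In the mouse build GRCm38 (mm10) with the GENCODE M21 annotation, all 10 members are protein-coding genes. Aqp2 lies at chr15:99579055-99584547 on the plus strand, Aqp3 at chr4:41092722-41098183 on the minus strand and Aqp4 at chr18:15389496-15410982 on the minus strand. Avpr2 lies at chrX:73892102-73895502 (plus), Hsd11b2 at chr8:105518755-105523988 (plus) and Fxyd4 at chr6:117933559-117937692 (minus). Scnn1g, at chr7:121734479-121768475, and Scnn1b, at chr7:121865038-121918514, are neighbours on the plus strand with 96562 bases between them. Stc1 lies at chr14:69029238-69041804 (plus) and Tmem45b at chr9:31426196-31464462 (minus). Of the 2886 exonic bases of Avpr2, 2347 also belong to exons of Arhgap4 on the opposite strand. Whether the counting used strand is not stated, so reads of Avpr2 and Arhgap4 may be mixed. The exons of Arhgap4 do not cover the last annotated base of Avpr2, at its 3' end. Only that base was checked, and the stretch before it, next to which this kit reads, was not. Arhgap4 itself had 3 to 42 counts per library. Stc1 shares 229 exonic bases with the antisense gene Gm41192, which had 0 counts in every library, and Tmem45b shares 103 with 4930434F21Rik on the opposite strand.

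Libraries held 8223008 to 10914515 counts. Levels are in CPM, counts scaled to a common library total, on library sizes scaled by TMM, a method that corrects for differences in composition between libraries, and 1 CPM stood for 7.61 to 11.3 counts. The lowest member values, those of Scnn1g, rested on as few as 29 counts, and Aqp2 on 1269 to 3926. A 3' read count does not grow with transcript length and was not divided by it, so no order between genes is read from these levels. The labelled tissue showed its markers, and the 9 proximal tubule markers summed to between 7441 and 11870 CPM in every library. Among the 5 Young libraries, Young 5 was the highest for 25.7% of the tested genes and each of the others for 15.4% to 22.9%. Old 5 had a macrophage marker sum of 984 CPM, where the lowest Old library had 160 CPM. In whole kidney RNA, fewer principal cells and less RNA per principal cell cannot be told apart.

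The RefSeq promoter table of GRCm38.p6 held 6 of the 10 members: Aqp2, Aqp3, Avpr2, Fxyd4, Scnn1b and Scnn1g. The receptor gene Avpr2 and its effector Aqp2 were taken for their relation between libraries, given below, which did not pass after adjustment over the pairs of members. Aqp3 and Scnn1g were taken as the members whose Old+YM libraries all lay above all Old libraries. The bases before the start of these 4 are printed here, 5′ to 3′ and ending 11 bases before the start. They are chr15:99578806-99579045 (plus) for Aqp2, chrX:73891852-73892091 (plus) for Avpr2, chr4:41098194-41098433 (minus) for Aqp3 and chr7:121734229-121734468 (plus) for Scnn1g. Capitals mark matches on either strand to the letters searched for.
Aqp2: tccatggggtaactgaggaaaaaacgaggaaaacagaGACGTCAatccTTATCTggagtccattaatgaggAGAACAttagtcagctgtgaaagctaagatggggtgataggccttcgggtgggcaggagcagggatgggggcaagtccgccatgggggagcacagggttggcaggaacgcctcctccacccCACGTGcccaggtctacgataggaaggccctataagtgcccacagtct
Avpr2: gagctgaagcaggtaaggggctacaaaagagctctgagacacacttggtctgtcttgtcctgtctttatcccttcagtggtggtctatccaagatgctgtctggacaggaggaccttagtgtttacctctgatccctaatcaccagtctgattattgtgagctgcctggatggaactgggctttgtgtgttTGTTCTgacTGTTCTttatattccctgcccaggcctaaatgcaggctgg
Aqp3: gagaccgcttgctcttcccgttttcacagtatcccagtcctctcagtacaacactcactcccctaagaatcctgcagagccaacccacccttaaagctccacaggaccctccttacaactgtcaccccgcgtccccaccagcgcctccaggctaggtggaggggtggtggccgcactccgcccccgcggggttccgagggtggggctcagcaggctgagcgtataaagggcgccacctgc
Scnn1g: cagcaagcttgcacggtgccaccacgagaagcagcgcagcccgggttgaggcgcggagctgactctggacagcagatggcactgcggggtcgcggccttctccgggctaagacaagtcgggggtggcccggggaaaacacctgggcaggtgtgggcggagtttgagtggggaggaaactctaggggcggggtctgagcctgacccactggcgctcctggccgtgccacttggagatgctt
Both strands were searched for the cAMP response element with the letters TGACGTCA. GATA factors were represented by the letters AGATAA, a site recognised by that family. The E-box, bound by factors such as those of the circadian clock, was searched as CACGTG. The short steroid receptor site, bound by receptors such as the mineralocorticoid receptor, was searched as AGAACA. After the Aqp2 window had been seen, the cAMP response element without its first base was added, which the full element always contains. The marked matches do not overlap one another. Aqp2 held the shortened cAMP response element at -213 from the start, the GATA letters on the other strand at -202, the steroid receptor letters at -179 and the E-box at -58. Avpr2 held the steroid receptor letters on the other strand at -59 and at -50. No capital stands in the windows of Aqp3 and Scnn1g, which says only that these letters are not there. Among 32851 promoter windows of 300 bases in the table, 1.79% held the cAMP response element, 3.21% its shortened form, 11.2% the GATA letters, 7.15% the E-box and 19% the short steroid receptor site, so the matches are described and no use of them is implied.

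The first comparison, Old against Young, asks how the kidney transcriptome of naturally aged mice differs from that of young adults. Fitted values of 9 of the 10 principal cell genes were lower in Old, with a median log2 fold change of -0.44 against 0.02 for all tested genes. Among all tested genes 52.6% had a value above 0. The members were chosen with earlier results of these data known, so their median only describes the set. Of the 10, Hsd11b2 fell and Stc1 rose at a Benjamini-Hochberg adjusted p under 0.05 in edgeR's quasi-likelihood test over all tested genes, and the other 8 did not pass. Across all genes 13.6% passed, 6.47% as higher and 7.13% as lower, so 1 member higher and 1 lower among 10 is close to that background. At an unadjusted p under 0.05, 6 members were lower and 1 higher, where 28.1% of all genes passed. Hsd11b2 was also the only member whose Old and Young libraries did not overlap, which 9.19% of all genes did.

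**Figure D1:**
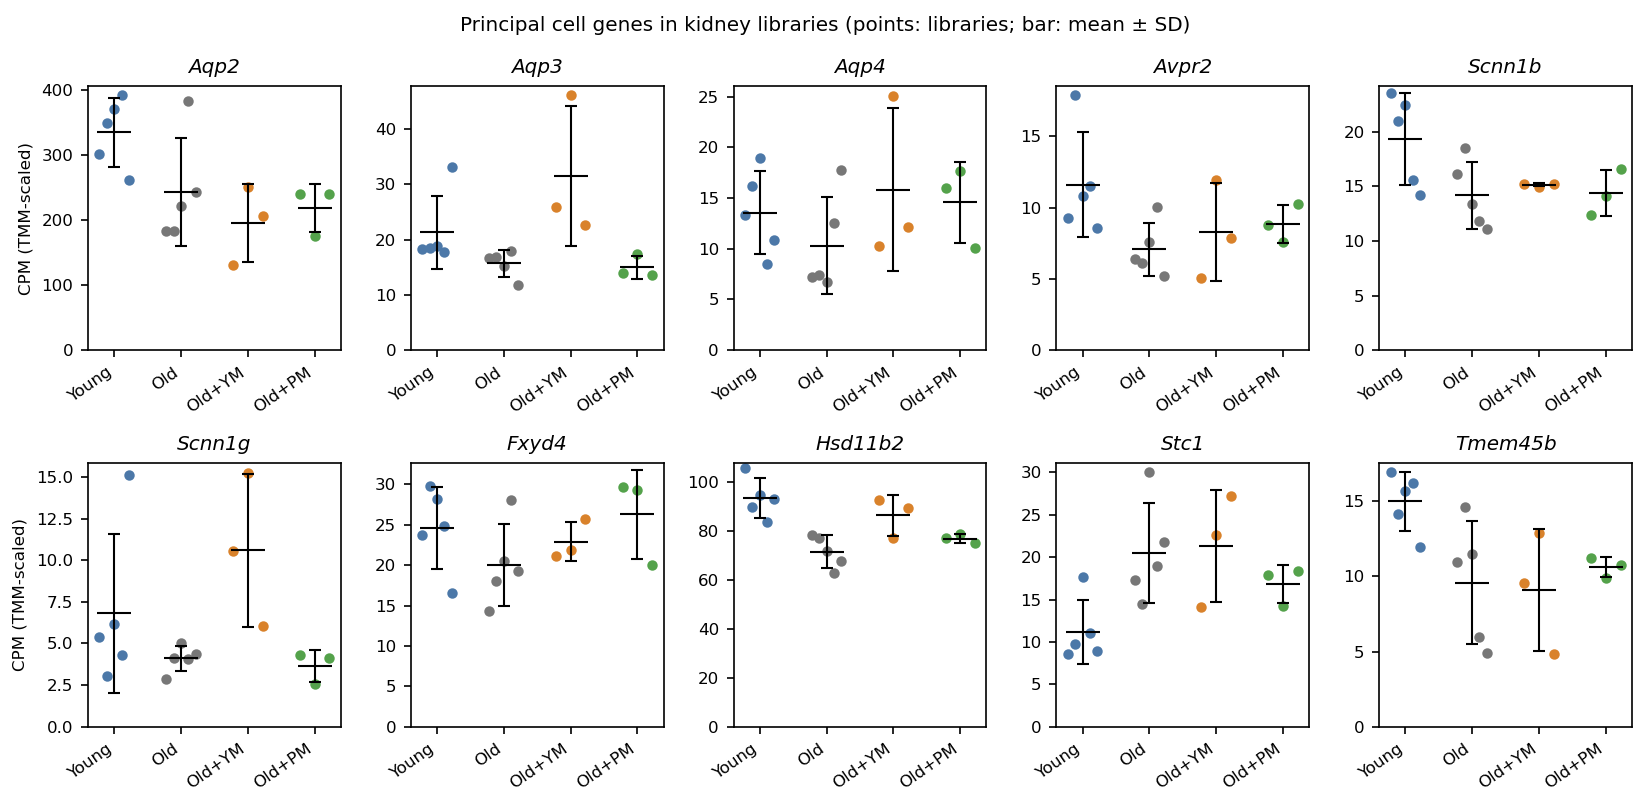
Level of each of the 10 principal cell genes in every library, in CPM on TMM-scaled library sizes (vertical axis, linear from 0); points are libraries, grouped as Young, Old, Old+YM and Old+PM, and black bars are the mean ± SD of a group. Hsd11b2 sits between 62.6 and 78.5 CPM in Old, below the 83.7 to 106 CPM of Young, and the highest Young point of Aqp3 and of Scnn1g is Young 5.

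Hsd11b2, the enzyme that shields the mineralocorticoid receptor, was 106, 89.8, 94.5, 83.7 and 93.1 CPM in Young libraries 1 to 5. In Old it was 78.5, 77.1, 71.6, 62.6 and 67.6 CPM. Every Old library was below every Young one. The mean fell from 93.4 ± 8.05 to 71.5 ± 6.61 CPM (SD, n = 5 each), a log2 fold change of -0.39 (SE 0.09; edgeR adjusted p = 0.00941). In Old+YM it was 92.4, 76.9 and 89.4 CPM, and in Old+PM 77.1, 78.5 and 74.8 CPM. The order of group means was Young, Old+YM (86.2 ± 8.24), Old+PM (76.8 ± 1.84), Old. Old+YM overlapped with Young, with Old+PM and, through Old+YM 2, with Old. Old+PM overlapped with Old. The fall in Old passed in every one of the 22 alternative analyses, with adjusted p up to 0.0435.

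Stc1 encodes stanniocalcin-1, a secreted glycoprotein tied to calcium and phosphate handling. It was 8.57, 9.76, 17.7, 11.1 and 8.94 CPM in Young and 17.3, 14.5, 30.0, 18.9 and 21.8 CPM in Old. The groups overlapped only through Young 3, which lay above the 2 lowest Old libraries. The mean rose from 11.2 ± 3.76 to 20.5 ± 5.93 CPM, a 1.82-fold difference (log2 0.87, SE 0.23; edgeR adjusted p = 0.0154). Old+YM, at 14.2, 22.6 and 27.2 CPM, and Old+PM, at 17.9, 14.2 and 18.4 CPM, spanned levels within the range of Old apart from the lowest library of each. The rise passed in all 22 alternatives, with adjusted p up to 0.0499.

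The vasopressin receptor and the water channels had lower fitted values in Old, and none passed. Avpr2, the vasopressin V2 receptor, was 9.30, 17.9, 10.8, 11.5 and 8.54 CPM in Young and 6.37, 6.12, 7.62, 10.04 and 5.19 CPM in Old. All Old libraries but Old 4 were below the lowest Young library. The log2 fold change was -0.72 (SE 0.24; edgeR adjusted p = 0.0536), just outside the threshold. Avpr2 passed in 8 of the 22 alternatives, among them DESeq2 (adjusted p = 0.0348) and the analyses without Young 5 (0.0420), Old 4 (0.0189), Old+YM 1 (0.0424), Old+YM 2 (0.0450) or Old+PM 3 (0.0498). The log2 fold changes of the 22 ran from -0.865 to -0.49, with adjusted p up to 0.1995. Arhgap4, whose exons overlap those of Avpr2, differed by a log2 fold change of 0.14 (SE 0.49), and its part in the Avpr2 values was not tested.

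Aqp2, the water channel of the luminal membrane, was 301, 349, 370, 392 and 262 CPM in Young. In Old it was 184, 183, 222, 383 and 243 CPM. Old 4 lay within the upper Young values, and the other 4 Old libraries were below all Young libraries. The mean was 335 ± 52.9 CPM in Young and 243 ± 82.3 CPM in Old (log2 fold change -0.46, SE 0.21, 95% interval -0.90 to -0.03; edgeR adjusted p = 0.154). Without Old 4 the log2 fold change was -0.68 and the adjusted p 0.00749. That was the 1 alternative of 22 in which Aqp2 passed. The log2 fold changes of the 22 ran from -0.68 to -0.36, with adjusted p up to 0.295. Old 4 also had the lowest sum of clock gene levels in Old, 407 CPM where the highest Old library had 944 CPM and Young libraries 391 to 520 CPM. It was the highest Old library for the sums of other collecting duct genes (1304 CPM) and intercalated cell markers (375 CPM). The same held for distal convoluted and connecting tubule markers (4589 CPM) and urothelial markers (13.2 CPM). It did not hold for thick ascending limb, proximal tubule or inner medulla markers. The part of the clock and of tissue makeup in the Aqp2 values was not tested.

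Aqp3, a water and glycerol channel of the blood-side membrane, was 18.4, 18.5, 18.8, 17.8 and 33.1 CPM in Young and 16.7, 16.8, 15.2, 18.0 and 11.8 CPM in Old. Young 1 to 4 lay close together and near the upper Old libraries, and Young 5 stood far above. The log2 fold change of -0.43 (SE 0.20; edgeR adjusted p = 0.168) became -0.20 without Young 5. Aqp4, the other water channel of that membrane, was 13.3, 16.2, 18.9, 8.52 and 10.9 CPM in Young and 7.17, 7.37, 6.68, 12.6 and 17.8 CPM in Old. Its groups overlapped widely, and the log2 fold change was -0.40 with a 95% interval of -1.07 to 0.27 (edgeR adjusted p = 0.451).

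The subunits of the epithelial sodium channel gave values below Young as well, without passing. Scnn1b, the beta subunit, was 23.6, 20.9, 22.5, 15.5 and 14.2 CPM in Young and 16.1, 18.5, 13.4, 11.8 and 11.1 CPM in Old. Young 1 to 3 were above all Old libraries, and Young 4 and 5 fell among them. The log2 fold change was -0.45 (SE 0.17; edgeR adjusted p = 0.0828). It passed in 3 of the 22 alternatives: without Young 5 (0.0486), without Old 2 (0.0443) or with a replicate block (0.0432). The log2 fold changes of the 22 ran from -0.55 to -0.36, with adjusted p up to 0.217. Scnn1g, the gamma subunit, was 5.37, 3.05, 6.17, 4.31 and 15.1 CPM in Young and 2.89, 4.11, 5.01, 4.09 and 4.39 CPM in Old. Again Young 5 was far above the other Young libraries, and the log2 fold change of -0.72 (SE 0.36; edgeR adjusted p = 0.198) became -0.18 without it. The alpha subunit gene Scnn1a, which is not among the 10, had a log2 fold change of -0.24 (SE 0.18; edgeR adjusted p = 0.401), and Young 5 was its lowest Young library at 27.1 CPM.

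Fxyd4, a small membrane protein that modulates the sodium pump, was 23.8, 29.8, 28.1, 24.8 and 16.6 CPM in Young and 14.3, 18.0, 20.6, 28.1 and 19.3 CPM in Old. Its log2 fold change was -0.30 (SE 0.18; edgeR adjusted p = 0.287), and the groups overlapped. Tmem45b, which encodes a transmembrane protein, was 16.9, 14.1, 15.7, 16.2 and 12.0 CPM in Young and 10.95, 14.6, 11.5, 5.94 and 4.89 CPM in Old. Only Old 2 reached the Young range. The log2 fold change was -0.65 (SE 0.26; edgeR adjusted p = 0.113), and without Old 2 it was -0.83 and passed (0.0472), as it did with a replicate block (-0.73, 0.0432). Those were the 2 of 22 alternatives in which it passed. The log2 fold changes of the 22 ran from -0.83 to -0.48, with adjusted p up to 0.252.

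**Figure D2:**
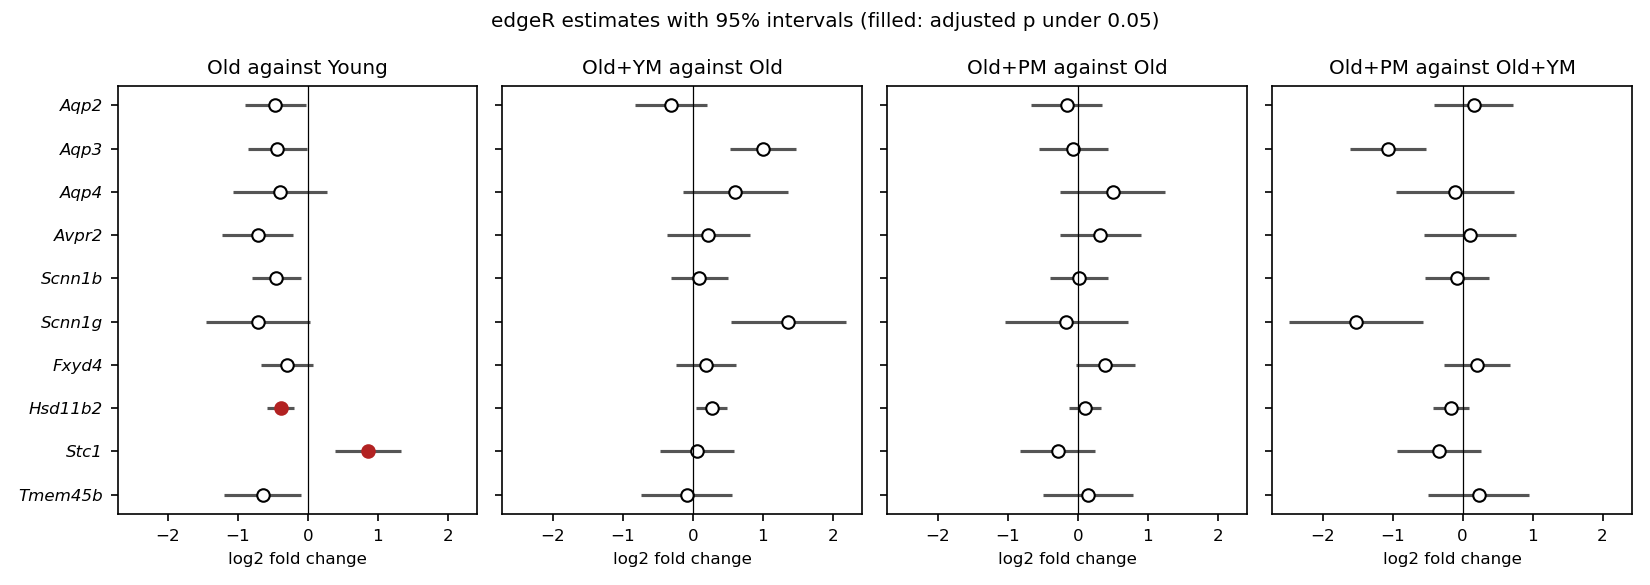
Log2 fold change of each principal cell gene in the 4 comparisons (horizontal axis), with 95% intervals from the edgeR fit; red points have an adjusted p under 0.05. In Old against Young 9 of 10 points lie below 0 with only Hsd11b2 and Stc1 red, and in Old+YM against Old the points of Aqp3 (1.003) and Scnn1g (1.36) lie farthest to the right.

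The second comparison, Old+YM against Old, asks what the YM formula changed in aged kidneys. None of the 10 members passed, where 0.0205% of all tested genes did. Fitted values of 8 members were higher in Old+YM and 3 members had an unadjusted p under 0.05 (Aqp3, Scnn1g and Hsd11b2), beside 9.48% of all genes. Aqp3 and Scnn1g were the members whose Old+YM libraries all lay above all Old libraries; 9.1% of all genes did not overlap in this comparison.

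Aqp3 was 26.0, 46.1 and 22.7 CPM in Old+YM, against 11.8 to 18.0 CPM in Old. All 3 libraries were also above Young 1 to 4, and Old+YM 2 was the highest library of the 16. The difference was 2.004-fold (log2 1.003, SE 0.23, 95% interval 0.53 to 1.48; edgeR adjusted p = 0.174). Scnn1g was 10.6, 15.2 and 6.03 CPM in Old+YM, against 2.89 to 5.01 CPM in Old, with Old+YM 2 the highest again. Its log2 fold change was 1.36 (SE 0.39, 95% interval 0.54 to 2.19; edgeR adjusted p = 0.289). With DESeq2 Aqp3 passed (adjusted p = 0.0324) and Scnn1g did not. Without Young 5, a library outside the comparison that enters the shared estimate of spread, both passed, with 0.0237 for Aqp3 and 0.0477 for Scnn1g. Without Old+YM 2 the log2 fold changes were 0.63 and 1.02 and the adjusted p 0.711 and 0.741.

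Other measures were set beside Aqp3 and Scnn1g. Young 5 and the Old+YM libraries were high together at many genes: 755 genes (5.15% of those tested) had all Old+YM libraries above all Old libraries, and at 578 of these (76.6%) Young 5 was the highest Young library, as it was for 25.7% of all tested genes. Usp19, a deubiquitinase gene that passed as higher in Old+YM (log2 1.08, SE 0.16; edgeR adjusted p = 0.0245), was 61.3 to 70.1 CPM in Old+YM, 25.7 to 34.6 CPM in Old and 62.4 CPM in Young 5. Aqp3 is also known in the urothelium, the lining of the renal pelvis. The 6 urothelial markers, of which 5 were tested, summed to 6.11 to 18.1 CPM in Old+YM and 2.40 to 13.2 CPM in Old, 2.79 to 8.20 CPM in Old+PM and 4.13 to 9.55 CPM in Young. These sums rested on few reads, 59 to 149 counts in Old+YM and 23 to 135 in Old. None of the markers was at 0 in every library, but single markers fell to 0 counts in some libraries. All 5 tested ones had higher fitted values in Old+YM than in Old (median log2 fold change 1.02) and none passed. Old+YM 2 had the highest sum. The 7 tested inner medulla and thin limb markers were likewise all above 0 in log2 fold change (median 0.65), and with the untested eighth, Sptssb, the list summed to 148 to 297 CPM in Old+YM and 113 to 201 CPM in Old. In Old+PM, where Aqp3 and Scnn1g lay at Old levels, that sum was 143 to 282 CPM, and in Young 105 to 146 CPM. Old+YM 2, the highest of all libraries for Aqp3 and Scnn1g, also had the highest inner medulla and thin limb sum of all libraries, 297 CPM. Young 5, the highest Young library for both, had a urothelial sum of 6.70 CPM and an inner medulla and thin limb sum of 108 CPM. Old+YM 1 had a urothelial sum of 6.11 CPM, below the 13.2 CPM of Old 4. Values above 0 in Old+YM against Old were also found for 16 of 19 other collecting duct genes and 6 of 7 hypertonicity response genes. Values below 0 were found for 8 of 8 macrophage markers and 6 of 9 distal convoluted and connecting tubule markers. Young 5 and Old+YM 2 were also the libraries with the fewest counts at 1 CPM, 7.61 and 8.22, and the part of library size was not tested. The part of the urothelium, of the depth of tissue sampled and of what Young 5 shares with Old+YM in the Aqp3 and Scnn1g values was not tested.

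The other members differed less. Hsd11b2 had a log2 fold change of 0.27 in Old+YM against Old (SE 0.11, unadjusted p = 0.0196; edgeR adjusted p = 0.45). Avpr2, at 5.07, 11.9 and 7.87 CPM, Aqp4, at 10.2, 25.1 and 12.2 CPM, and Fxyd4, at 21.1, 21.9 and 25.7 CPM, each overlapped with Old; Old+YM 2 was the highest of the 3 for Avpr2 and Aqp4. Scnn1b was 15.2, 15.0 and 15.2 CPM, with a log2 fold change of 0.10 and a 95% interval of -0.32 to 0.51. Aqp2, at 131, 250 and 206 CPM, was the member with the most negative value, a log2 fold change of -0.31 (95% interval -0.82 to 0.20; edgeR adjusted p = 0.7). Tmem45b, at 9.52, 12.9 and 4.81 CPM, gave -0.09 and Stc1 gave 0.06, each within the range of Old but for its lowest library.

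The third comparison, Old+PM against Old, asks the same of the PM formula and shares the Old libraries with the second. None of the 10 members passed, and 0% of all tested genes did. No member reached an unadjusted p under 0.05, where 6.16% of all genes did, and all 10 overlapped, where 4.02% of all genes did not. Aqp2 was 239, 176 and 239 CPM in Old+PM, with a log2 fold change of -0.16 (95% interval -0.66 to 0.35). Aqp3 was 14.0, 17.4 and 13.7 CPM and Scnn1g was 4.29, 2.57 and 4.14 CPM, both at Old levels, with log2 fold changes of -0.06 (95% interval -0.56 to 0.43) and -0.16 (-1.04 to 0.72). The interval of Scnn1g was the widest of the 10 members in this comparison.

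Fxyd4, at 29.7, 29.3 and 19.98 CPM in Old+PM, had the smallest p of the members in this comparison (log2 fold change 0.39, SE 0.20, unadjusted p = 0.0648; edgeR adjusted p = 0.82). Old+PM 1 and 2 were above all Old libraries and Old+PM 3 was not. Aqp4 was 15.9, 17.7 and 10.04 CPM (log2 fold change 0.50, SE 0.36) and Avpr2 8.76, 7.61 and 10.2 CPM (0.33, SE 0.28). Scnn1b was 12.4, 14.2 and 16.6 CPM and Tmem45b 11.2, 9.91 and 10.8 CPM, with log2 fold changes of 0.02 and 0.15. Hsd11b2 gave 0.10 (95% interval -0.12 to 0.33) and Stc1 -0.28 (-0.82 to 0.25).

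The fourth comparison sets Old+PM against Old+YM. No member passed, and 0% of all tested genes did. Aqp3 and Scnn1g had an unadjusted p under 0.05, as did 12.8% of all genes, and were the members whose groups did not overlap, as in 23.8% of all genes. Aqp3 was lower in Old+PM by a log2 fold change of -1.07 (SE 0.26; edgeR adjusted p = 0.226), and Scnn1g by -1.53 (SE 0.46; edgeR adjusted p = 0.258). Aqp3 passed in 2 of the 22 alternatives, with DESeq2 (0.0464) and without Young 5 (0.0440), and its adjusted p reached 0.779 in another. The same urothelial markers had lower fitted values in Old+PM than in Old+YM in 5 of 5, with a median log2 fold change of -1.34 and none passing. Other lists did so too, with 7 of 7 hypertonicity response genes and 13 of 19 other collecting duct genes lower. In the other direction, 7 of 9 distal convoluted and connecting tubule markers and 7 of 8 macrophage markers were higher. For the other 8 members the log2 fold changes lay between -0.34 (Stc1) and 0.23 (Tmem45b).

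Over the 4 groups the members did not share 1 order of means. For Aqp2 the order was Young, Old, Old+PM (218 ± 36.7 CPM) and Old+YM (196 ± 59.99 CPM), with the 3 aged groups overlapping. For Avpr2 it was Young (11.6 ± 3.70 CPM), Old+PM (8.87 ± 1.32), Old+YM (8.29 ± 3.44) and Old (7.07 ± 1.87), each overlapping with its neighbour. Aqp3 was highest in Old+YM (31.6 ± 12.7 CPM), then Young (21.3 ± 6.61), Old (15.7 ± 2.41) and Old+PM (15.0 ± 2.09). Scnn1g had the same order, with 10.6 ± 4.59, 6.81 ± 4.79, 4.10 ± 0.772 and 3.66 ± 0.954 CPM. For both genes Old+YM overlapped with Young only through Young 5 or, for Scnn1g, also through Young 3, and Old and Old+PM overlapped with each other.

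**Figure D3:**
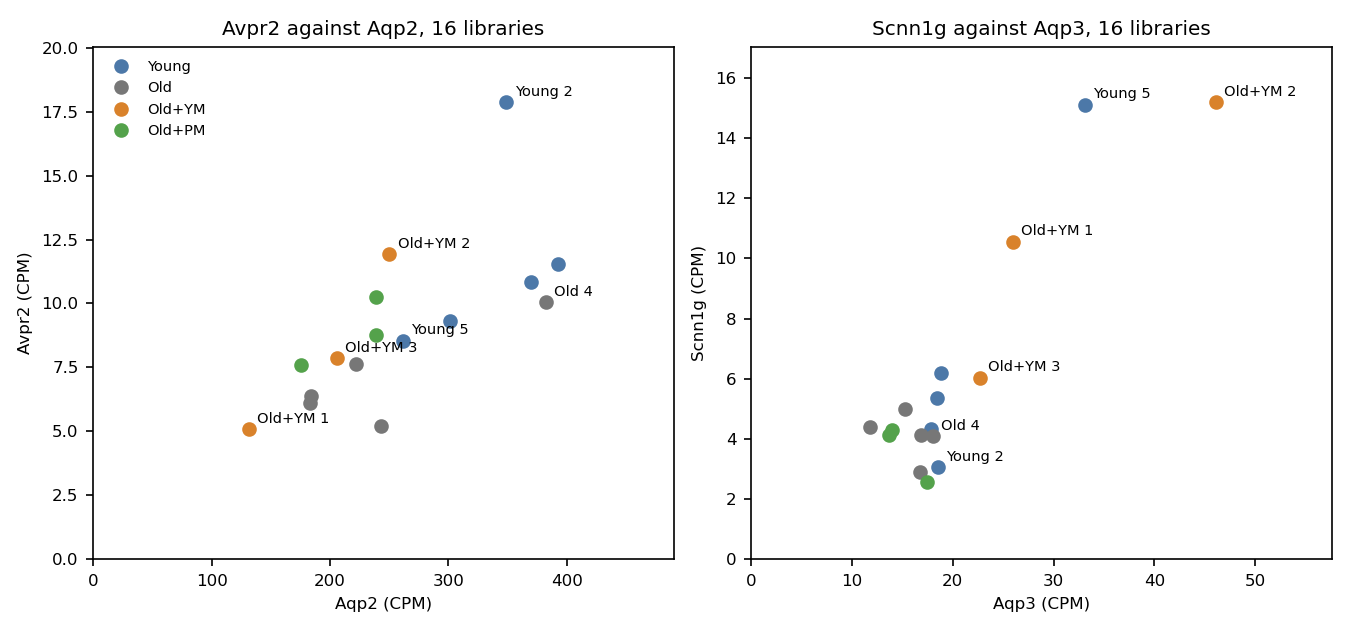
Levels of Avpr2 against Aqp2 (left) and of Scnn1g against Aqp3 (right), in CPM on linear axes, 1 point for each of the 16 libraries, coloured by group. Libraries with more Aqp2 mostly had more Avpr2, and in the right panel Young 5 and Old+YM 2 stand far from the rest.

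Between libraries of 1 group, Avpr2 went with Aqp2. With group means taken out of the log2 values, Pearson's r was 0.745 (permutation p = 0.00588, two-sided) and Spearman's rho 0.709 (p = 0.0101) over 16 libraries, and r was 0.605 without Old 4 and Old+YM 1, the libraries farthest from the median of Aqp2. Adjusted over the 45 pairs of members, the p were 0.132 and 0.194. Hsd11b2 ran the other way, with r = -0.792 against Aqp2 (permutation p = 0.00135, adjusted 0.0607) and rho = -0.738 (p = 0.0048, adjusted 0.194), and r = -0.713 without the same libraries. Aqp3 and Scnn1g gave r = 0.62 (permutation p = 0.0705, adjusted 0.426) and rho = 0.388 (p = 0.196, adjusted 0.585); without Young 5 and Old+YM 2, r was 0.0857, so that relation rests on those libraries. None of the 45 pairs passed after adjustment. Both genes of a pair come from the same library, so depth and tissue makeup are common to the points.

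The genes of at least 5 CPM whose level followed Aqp2 most closely over the 16 libraries were Pdia4 (Spearman's rho 0.932), Eipr1 (0.915), Serinc2 (0.915), Ak6 (0.894) and Cetn3 (0.891). Avpr2 was number 180 of 10302 genes in that ranking, at 0.771, and the other members came after it. The genes closest to the mean z-score of the 10 members were Slc10a2 (0.894), Pafah1b1 (0.885), Ndufb2 (0.865), Tma7 (0.865) and Anapc16 (0.862). None of these 10 genes is on the lists of collecting duct genes used here. For Aqp3, a search added after its values had been seen gave Ehhadh (0.918) and Tma7 (0.879) first, with Scnn1g at number 155 (0.603). These values carry no test, and all come from the same 16 libraries.

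Genes that act with the members were counted from lists. Across all tested genes 13.6% passed in Old against Young, 6.47% as higher and 7.13% as lower, and counts near that share are not read as results about a list. Of 19 genes of vasopressin signalling and aquaporin trafficking, 2 rose in Old against Young and none fell: Pde4d, a phosphodiesterase that breaks down cyclic AMP (log2 0.81, SE 0.12; 158 against 90.0 CPM; edgeR adjusted p = 0.000226), and Akap7, an anchor of protein kinase A (log2 0.50, SE 0.13). The list's median log2 fold change was -0.01. Of 19 genes of aldosterone action and sodium channel control, 3 rose and 1 fell. Tsc22d3, known as the glucocorticoid-induced gene GILZ (log2 0.58, SE 0.14), Cnksr3, a scaffold in sodium channel control (0.55, SE 0.17), and Per1, a clock gene that aldosterone induces (1.69, SE 0.46), rose. Per1 stands on the clock list as well and is counted there again. The mineralocorticoid receptor gene Nr3c2 did not pass (log2 0.28, SE 0.32) and neither did Sgk1, a kinase that aldosterone induces (0.22, SE 0.24). Of 7 tested hypertonicity response genes 1 rose, the taurine transporter gene Slc6a6 (log2 0.53, SE 0.16).

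**Figure D4:**
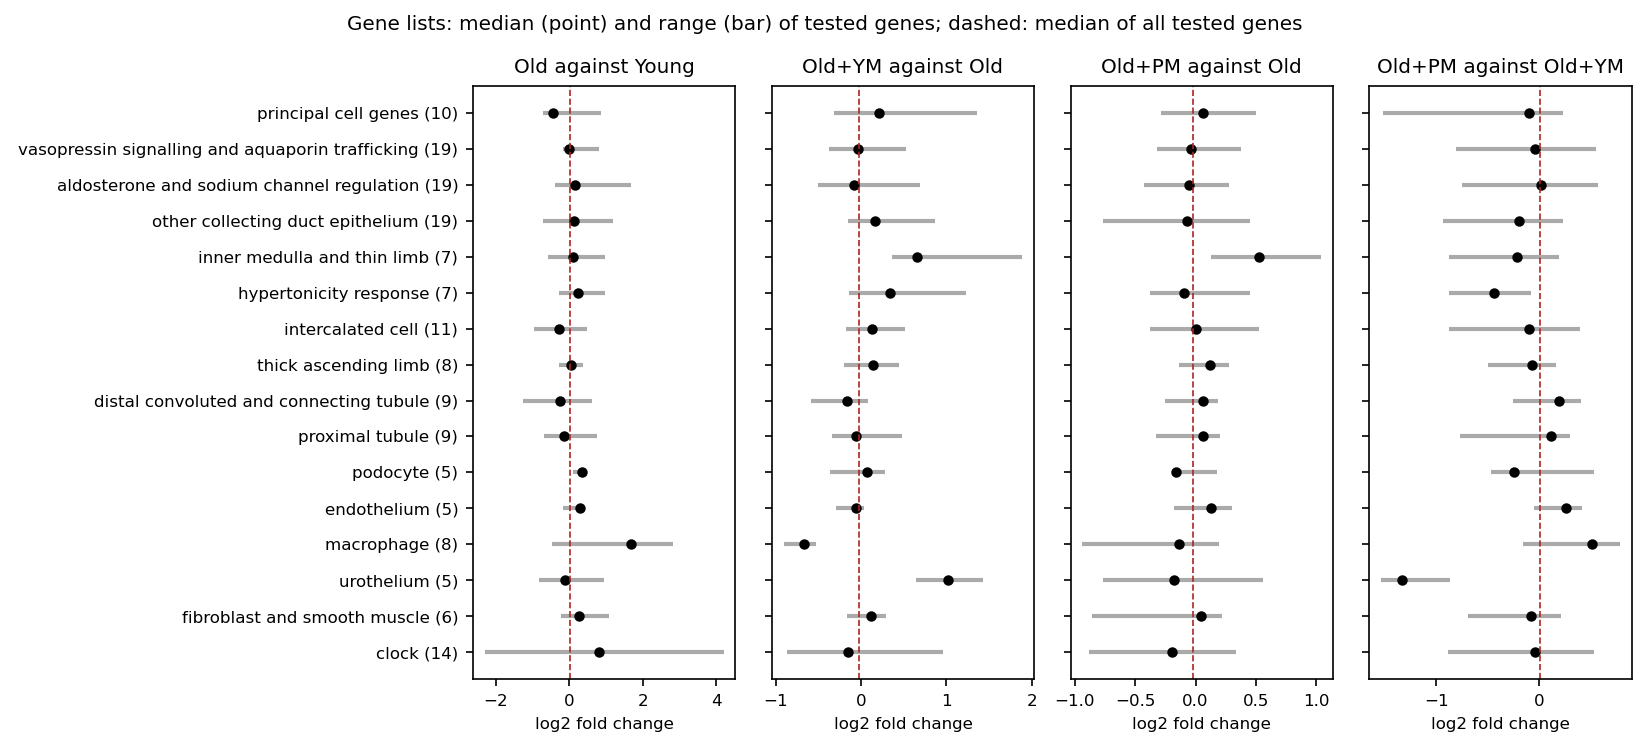
Log2 fold changes (horizontal axis) of each list (rows, number of tested genes in brackets) in the 4 comparisons (panels, each with its own scale); points are medians, bars the range over the list's genes, and the dashed line is the median of all tested genes. The principal cell row is centred at -0.44 in Old against Young, and the urothelium row at 1.02 in Old+YM against Old.

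Markers of neighbouring cells moved in both directions in Old against Young, where 13.6% of all tested genes passed. Among 19 tested other collecting duct genes, 2 fell, the ureteric bud factor gene Hoxb7 (log2 -0.41, SE 0.10) and the peptide hormone gene Apela (-0.72, SE 0.18), none rose, and the median was 0.13. With the untested Elf5, their sums were 1032 to 1304 CPM in Old and 1141 to 1339 CPM in Young, and those of the 10 members 354 to 555 CPM in Old and 474 to 603 CPM in Young, so both ranges overlapped. Of 11 intercalated cell markers, the neighbours of principal cells in the duct, 1 rose and 2 fell (median -0.28), and of 9 distal convoluted and connecting tubule markers 1 rose and 3 fell (median -0.26). The connecting tubule, which also makes the sodium channel and Hsd11b2, is among the sources of the members' RNA that these data do not separate. Calb1, a calcium-binding protein of that segment, fell (log2 -0.52, SE 0.12), and Slc12a3, the sodium chloride cotransporter of the distal convoluted tubule, rose (0.63, SE 0.11). None of the 7 inner medulla markers passed (median 0.11), nor did any of the 5 urothelial ones (median -0.11).

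The remaining lists stand beside the same 13.6% of all tested genes in Old against Young. In them 1 of 8 thick ascending limb genes rose and none fell, and 1 of 9 proximal tubule genes rose and 2 fell. Of 5 podocyte, 5 endothelial and 6 fibroblast or smooth muscle genes 1 each rose. Of 8 macrophage genes 5 rose, with sums of 160 to 984 CPM in Old against 152 to 196 CPM in Young. Of 14 clock genes 8 rose and 2 fell, with sums of 407 to 944 CPM in Old against 391 to 520 CPM in Young. Their part in the Hsd11b2 and Stc1 differences was not tested. In the other 3 comparisons no gene of these lists passed.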

How the data were processed

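Kidney RNA of 16 mouse libraries was prepared from total RNA with a QuantSeq 3' kit, per the labels' protocols. The deposited files hold raw read counts per gene symbol, whole numbers without normalization. Bowtie2, bedtools and the mm10 build are named, per the submitters' processing notes; versions, annotation, strand and the handling of multi-mapped reads are not stated. In R 4.3.3, edgeR's filterByExpr (minimum count 10) kept 14665 genes. All libraries entered one edgeR 4.0.16 quasi-likelihood fit with robust dispersions, TMM scaling and group as the only term. Tests were two-sided, 4 comparisons in all, with Benjamini-Hochberg adjustment over all 14665 genes at 0.05. The treated comparisons share the Old libraries. Intervals are 95%. The working of the fit was checked on simulated counts drawn from its own fitted spread, with known changes set in Old only. Simulated libraries were independent, so this check cannot show how the fit handles what real libraries share. Correlations of members used log2 of CPM plus 0.25, with 100000 permutations within groups.

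Alternatives were DESeq2 1.42.0, limma 3.58.1 (voom), upper quartile scaling, no count filter, only the 2 groups compared, a replicate block, and leaving out each library. The members and lists were chosen with earlier results of these data known. Besides the members, genes were to be named if they belong to a list and passed, with up to 3 of the highest level from a list without a call, and the 5 closest in pattern to Aqp2 and to the members' mean; of the listed genes, mainly those of the pathways and the collecting duct are named here. Scnn1a, Nr3c2, Sgk1, Usp19 and Arhgap4 were chosen after their values were seen. One listed gene that passed is not reported here by name.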

Additional observations from a re-analysis of the deposited data

Results flagged for a closer look

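Within groups of 5 libraries, 3 of the 20 groups of values checked (10 members in Young and in Old) had 1 library set apart from the others by Dixon's criterion, which chance does in about 1 group in 20. Aqp3 was 33.1 CPM in Young 5, where the other Young libraries were 17.8 to 18.8 CPM. Scnn1g was 15.1 CPM in the same library, where the others were 3.05 to 6.17 CPM. Stc1 was 17.7 CPM in Young 3, where the others were 8.57 to 11.1 CPM.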

How the results depend on the processing

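In Old against Young the calls of Hsd11b2 and Stc1 held in all 22 alternatives, and 9 of 10 members kept a negative value in each. The number of members called lower, 1, became 2 with DESeq2, 2 with no count filter, 4 with the replicate block, and 1 to 3 when leaving out 1 library (3 without Young 5, Old 2 or Old 4); all genes called, 1995, became 1208 to 2655. Upper quartile scaling raised the share of higher calls from 47.6% to 59.3%. In Old+YM against Old, members called higher, 0, became 1 with DESeq2 and 0 to 2 without 1 library (2 without Young 5); all genes called, 3, became 49 with DESeq2, 6 with no filter, 20 with only the 2 groups, 6 with the block and 0 to 39 without 1 library. In Old+PM against Old+YM, members called lower, 0, became 1 with DESeq2 and 0 to 1 without 1 library (Young 5); all genes called, 0, became 58 with DESeq2, 8 with no filter, 4 with limma-voom, 13 with only the 2 groups, 1 with the block and 0 to 32 without 1 library. The cause was not tested. With the replicate block these log2 fold changes turned sign: Scnn1b in Old+YM against Old (-0.098), and in Old+PM against Old Aqp2 (0.012), Scnn1b (-0.18), Scnn1g (0.0071) and Tmem45b (-0.021).

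Leaving out 1 library turned the sign in these ranges, none of a called value: in Old+YM against Old Avpr2 -0.13 to 0.50, Stc1 -0.15 to 0.30 and Tmem45b -0.42 to 0.23; in Old+PM against Old Aqp2 -0.24 to 0.089, Aqp3 -0.17 to 0.0053, Scnn1b -0.090 to 0.15, Scnn1g -0.30 to 0.053 and Tmem45b -0.014 to 0.37; in Old+PM against Old+YM Aqp2 -0.072 to 0.37, Aqp4 -0.35 to 0.38, Avpr2 -0.16 to 0.45, Scnn1b -0.20 to 0.018 and Tmem45b -0.078 to 0.57. Equal replicate numbers were not shown to pair libraries: 3 of 20 same-number pairs had deviations correlated above 0.1 (range -0.304 to 0.158), and 4 of 16 libraries correlated best with their own number. Depth limits Scnn1g most, with as few as 29 counts in a library.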
